A study of Mus musculus with 6 samples.

Results

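The p24 cargo receptors of the Tmed family were followed in RET cells, a mouse melanoma line, with and without a short hairpin RNA (shRNA) against Angpt2, the gene of the secreted vascular ligand angiopoietin-2. The members were 9 listed genes, Tmed1, Tmed2, Tmed3, Tmed4, Tmed5, Tmed7, Tmed8, Tmed9 and Tmed10, each represented by its brightest transcript cluster (the array's unit for a gene) among clusters that the platform annotation gives exactly 1 symbol. Of the 9, 8 had such a cluster, out of 22180 genes in all, and Tmed1 was not analysed here. The family was picked with the difference of Tmed2 between the groups already known, so the Tmed2 values are a description and carry no test.

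Both groups were the RET line, labelled with the C57BL\6 strain and grown for 24 h in standard medium. The control group (3 cultures) carried a non-targeting shRNA, and its titles add the word GFP, which the labels do not explain. The other group (3 cultures) carried Angpt2 shRNA-1. The labels name 1 line and 1 hairpin against Angpt2, so an effect of Angpt2 loss and another effect of this hairpin cannot be told apart. In such bulk RNA, fewer cells with a transcript and less of it per cell cannot be told apart either.

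The p24 proteins are small membrane proteins that cycle between the endoplasmic reticulum (ER) and the Golgi apparatus. Their lumenal GOLD domain binds cargo, and their short cytosolic tails bind the COPII coat, which buds vesicles from the ER, and the COPI coat, which returns them from the Golgi. They act as hetero-oligomers of the alpha (Tmed4, Tmed9, Tmed11), beta (Tmed2), gamma (Tmed1, Tmed3, Tmed5, Tmed6, Tmed7) and delta (Tmed10) subfamilies, and are best known for the ER exit of glycosylphosphatidylinositol (GPI)-anchored proteins. Tmed8 is a more distant relative with a GOLD domain.

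Array medians ranged from 74.5 to 76.2 in normalized intensity, and log2 values of arrays of the same group correlated across genes at 0.983 to 0.993. Control replicates 1, 2 and 3 had Angpt2 intensities of 195, 372 and 326, against 100.2, 122 and 122 for Angpt2 shRNA-1 replicates in the same order, so the labels' groups did not overlap for the targeted gene. All 10 melanocyte markers measured lay above the median gene (intensity 87.7), against 3 of 6 fibroblast markers (Col1a1, Col1a2 and Pdgfra), 1 of 5 leukocyte markers (Cd68) and 0 of 5 endothelial and 0 of 4 keratinocyte markers. The summed intensity of the melanocyte markers was 43863 to 48538 in controls and 42950 to 46242 in Angpt2 shRNA-1 cells. For the fibroblast markers it was 468 to 516 against 465 to 496, for leukocyte 387 to 470 against 410 to 420, for endothelial 339 to 384 against 367 to 395, and for keratinocyte 264 to 293 against 240 to 268.

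Tmed2, the only beta subfamily member, was represented by transcript cluster 17515835. Control replicates 1, 2 and 3 read 1182, 533 and 848 in normalized intensity, and Angpt2 shRNA-1 replicates 1, 2 and 3 read 2280, 895 and 2168. Replicate 2 was the lowest array of both groups, and the groups overlapped, since Angpt2 shRNA-1 replicate 2 lay below control replicate 1. Within each replicate number the Angpt2 shRNA-1 array was the higher, by 0.95, 0.75 and 1.35 on the log2 scale. On the log2 scale the mean was 9.66 ± 0.58 in controls and 10.68 ± 0.76 in Angpt2 shRNA-1 cells (SD, n = 3 each), a ratio of geometric means of 2.02. A difference of at least 2-fold between group means was shared by 5 genes, 0.0225% of those tested. Only 17 genes (0.0766%, Tmed2 included) ranged over the 6 arrays as widely as this cluster, whose span was 2.10 on the log2 scale. The family was picked on the difference of this cluster, so its place in both counts was fixed, or largely so, by that choice.

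A second cluster annotated to Tmed2, 17442526, did not show this pattern. Control arrays, in the order of their replicate numbers, read 132, 127 and 148, and Angpt2 shRNA-1 arrays 133, 129 and 149. Here replicate 3 was the highest array of both groups, and arrays with the same replicate number were nearly equal, differing on the log2 scale by 0.011, 0.019 and 0.0026. The means were 7.08 ± 0.12 in controls and 7.09 ± 0.11 in Angpt2 shRNA-1 cells (SD, n = 3 each), a log2 difference of 0.01 with a 95% interval of -0.21 to 0.23 when this cluster stood for Tmed2 in the fit. That setting was chosen after seeing the data.

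The clusters also differ in their place in the order of cluster IDs. Cluster IDs follow the genome closely. Of 22008 clusters whose 8 nearest named neighbours by ID all belong to genes of 1 chromosome, 99.6% carry a gene of that chromosome and 99 do not. The RefSeq annotation (GRCm38.p6) puts Tmed2 on chromosome 5. The dimmer cluster sits between those of Snrnp35 and Ddx55, with 8 of 8 neighbours on chromosome 5. The brighter cluster, which carries the 2.02-fold difference, sits between those of Ets1 and 7630403G23Rik, with 0 of 8 neighbours on chromosome 5 and all of them on chromosome 9. RefSeq lists a pseudogene, Gm10698, between Ets1 and 7630403G23Rik, with Tmed2 and Tmed2b among its older names, and the platform annotation used here has no cluster under its gene ID. It is 1 of 7 RefSeq genes in that interval, the others being lncRNAs and a snoRNA. Which transcript the probes of the brighter cluster detect was not tested, because probe sequences were not used here. The 2.02-fold value is therefore given as that of a cluster annotated to Tmed2, not as that of the Tmed2 gene on chromosome 5.

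**Figure D1:**
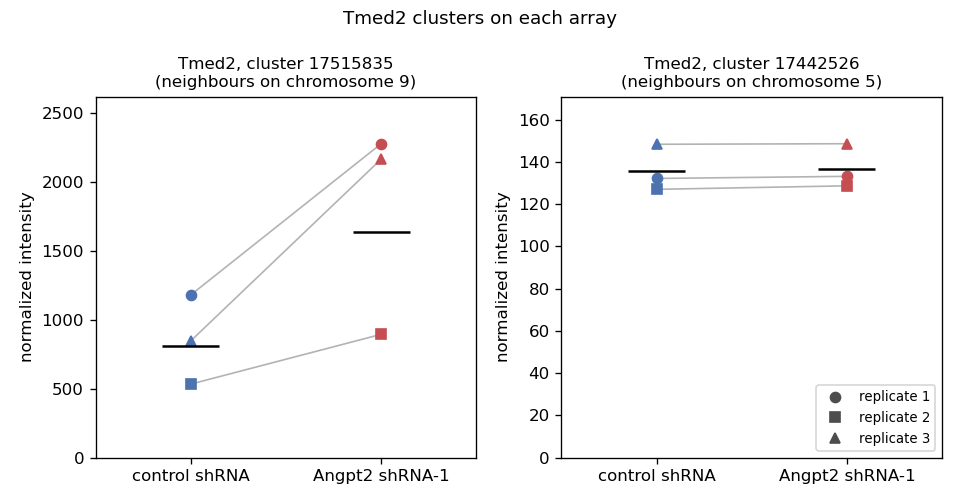
Normalized intensity (y axes, from 0, on different scales) of the 2 clusters annotated to Tmed2 in control shRNA and Angpt2 shRNA-1 cultures (x axis). Points are arrays, grey lines join arrays with the same replicate number and black bars are geometric means; the left cluster runs from 533 to 2280 while the right one stays between 127 and 149 and is level within each replicate number.

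The gap between clusters of the same gene was set against other genes. Among the 1082 genes with more than 1 cluster, the gap between the highest and the lowest log2 difference of a gene's clusters had a median of 0.11, and Tmed2 had the widest with 1.01. Nearly all of that gap is the difference of the brighter cluster on which the family was picked, so its rank was largely fixed by that choice. Clusters of the other members with more than 1 lay closer together. The gap was 0.023 for the 2 clusters of Tmed9 and 0.14 for the 3 clusters of Tmed10. The dimmer Tmed9 cluster, 17547781, also sits apart from its gene in the order of IDs. It has 2 of 8 neighbours on chromosome 13, where Tmed9 lies, and the others on several chromosomes.

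Tmed10 (p23), the delta subfamily member and the usual partner of Tmed2 in COPI vesicles, varied least among the members. In replicate order, its intensity was 2369, 2239 and 2394 in controls and 2378, 2406 and 2418 on the Angpt2 shRNA-1 arrays. The groups overlapped, and the whole span over 6 arrays was 0.11 on the log2 scale. The log2 difference was 0.04 (SE 0.08, 95% interval -0.14 to 0.22). RefSeq also lists a transcribed pseudogene of this gene, Tmed10-ps, on chromosome 13, and whether the probes tell both apart was not tested. The cluster used has 8 of 8 neighbours on chromosome 12, where Tmed10 lies.

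The alpha subfamily members, which occupy p24 complexes beside Tmed2 and Tmed10, were also close between groups. Tmed4 intensity was 1275, 1049 and 1092 in controls and 1154, 1174 and 1164 in Angpt2 shRNA-1 cells. The Angpt2 shRNA-1 arrays lay inside the control range with an SD of 0.013 on the log2 scale, against 0.15 in controls. The log2 difference of Tmed4 was 0.04 (SE 0.09, 95% interval -0.18 to 0.25). Tmed9, known as a receptor that holds misfolded membrane cargo in the early secretory pathway, was at 418, 452 and 404 in controls and at 485, 420 and 406 in Angpt2 shRNA-1 cells. Angpt2 shRNA-1 replicate 1 was the highest array and the other 5 overlapped. The log2 difference was 0.04 (SE 0.10, 95% interval -0.18 to 0.26), and -0.04 without Angpt2 shRNA-1 replicate 1.

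Among the gamma subfamily members, Tmed5 had the largest difference. Tmed5, which has been linked to the export of Wnt ligands, was at 354, 401 and 330 in controls and at 380, 461 and 366 in Angpt2 shRNA-1 cells. Replicate 2 was the highest array and replicate 3 the lowest array of both groups, so the groups overlapped although the Angpt2 shRNA-1 array was the higher of each number, by 0.10, 0.20 and 0.15 on the log2 scale. The log2 difference of the means was 0.15 (SE 0.12, 95% interval -0.11 to 0.41), or 1.11-fold, and 0.05 without Angpt2 shRNA-1 replicate 2. Tmed5 did not pass the test with or without the replicate number as a block (limma adjusted p = 1.00 for both).

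Tmed7, which carries the receptor TLR4 toward the cell surface, was at 2360, 2297 and 2406 in controls and at 2239, 2169 and 2404 in Angpt2 shRNA-1 cells. Control arrays reached as low as 2297 and Angpt2 shRNA-1 arrays as high as 2404, and the log2 difference was -0.05 (SE 0.08, 95% interval -0.24 to 0.13). Tmed3 was at 419, 347 and 374 in controls and at 387, 362 and 351 in Angpt2 shRNA-1 cells. All 3 Angpt2 shRNA-1 arrays lay inside the control range, and the log2 difference was -0.05 (SE 0.10, 95% interval -0.27 to 0.17), with 0.025 without control replicate 1.

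Tmed8 was at 403, 464 and 394 in controls and at 415, 410 and 392 in Angpt2 shRNA-1 cells. Control replicate 2 stood above the other 5 arrays, and the log2 difference was -0.05 (SE 0.09, 95% interval -0.25 to 0.16), with 0.027 without that array. The family genes outside the member list were dim. Tmed6 intensities ran from 39.7 to 50.5 and those of Tmed11 from 43.2 to 49.8, below the median gene, and without detection calls they cannot be told from background. Their log2 differences were -0.07 (SE 0.11), with 0.019 without Angpt2 shRNA-1 replicate 1, and -0.06 (SE 0.08).

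**Figure D2:**
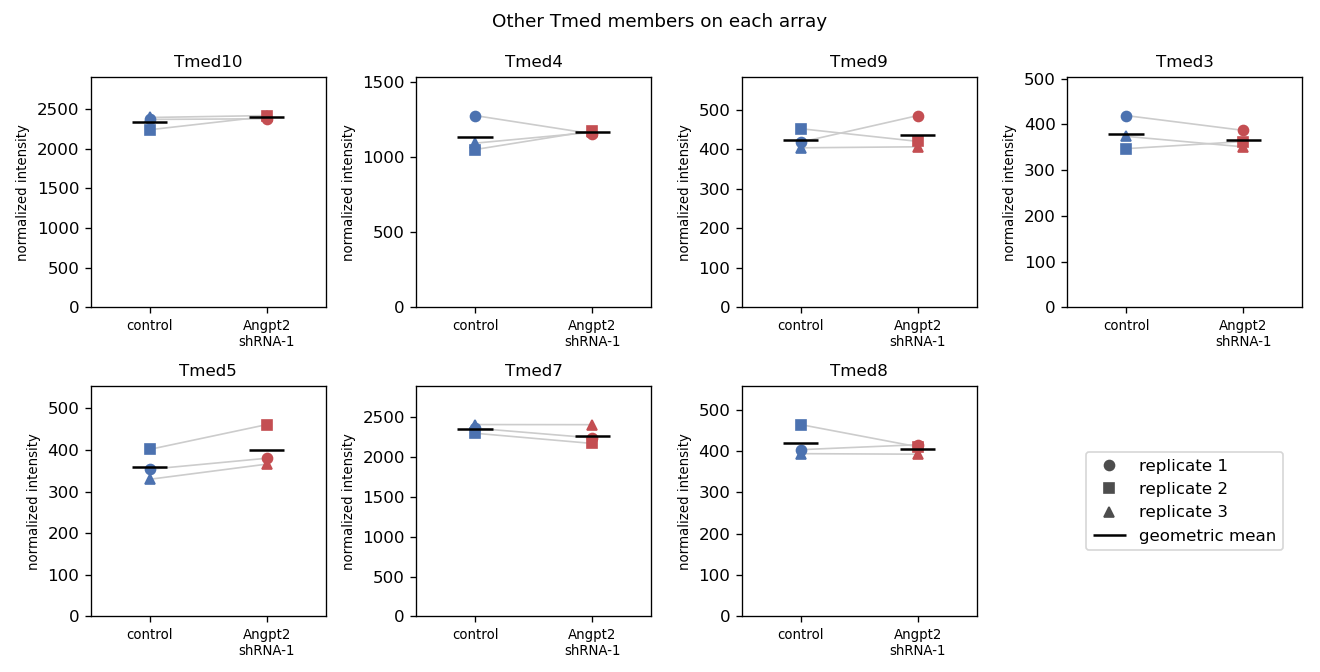
Normalized intensity (y axes, from 0) of the 7 members other than Tmed2 in control and Angpt2 shRNA-1 cultures (x axis). Points are arrays, grey lines join arrays with the same replicate number and black bars are geometric means; the groups overlap in every panel, and Tmed5 is the panel in which each Angpt2 shRNA-1 array lies clearly above the control array of its number.

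Read across the family, 0 of the 7 members other than Tmed2 passed the limma fit over all genes (adjusted p of 0.05), where 0% of the 22180 genes did. At an unadjusted p under 0.05 the fit held 835 genes (3.76%), among them 0 of these 7. A fit blocked by replicate number called 2 genes (0.00902%), Angpt2 and Pld4, and 0 of the 7. Groups without overlap were found for 0 of the 7, against 9.01% of all genes. The 95% intervals of the 7 members other than Tmed2 together reached from -0.27 to 0.41 on the log2 scale, or from 0.832 to 1.33 as a ratio of Angpt2 shRNA-1 over control. Of these 7, 4 had positive and 3 negative differences, with a median of 0.04 against -0.01 over all genes, and their median absolute difference was 0.05 against 0.07. Within all 3 replicate numbers the Angpt2 shRNA-1 array was the higher for 2 of the 7, Tmed5 and Tmed10 (10.3% of all genes), and the lower for 1, Tmed7 (14.8%).

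**Figure D3:**
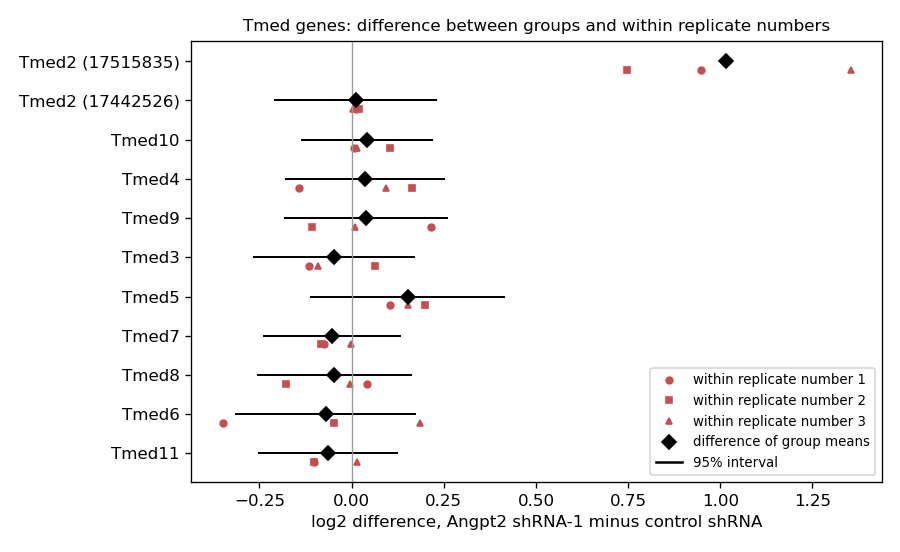
Log2 difference of Angpt2 shRNA-1 minus control shRNA (x axis) for each Tmed gene and both Tmed2 clusters (y axis). Diamonds are differences of group means, black lines 95% intervals from the limma fit (none for the cluster of Tmed2 that the family was picked on, 17515835) and small symbols the differences within replicate numbers 1, 2 and 3; that cluster stands at 1.02 and the others between -0.07 and 0.15.

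The members varied in different ways from array to array. On control replicate 2, Tmed8 (0.17), Tmed5 (0.080) and Tmed9 (0.072) lay above their own mean of the 6 arrays on the log2 scale, while Tmed2 (-1.11), Tmed4 (-0.13), Tmed3 (-0.10) and Tmed10 (-0.080) lay below. On control replicate 1, Tmed3 (0.17) and Tmed4 (0.15) were above their means and Tmed5 (-0.10) below. No array was high or low for every member.

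By mean absolute difference of log2 deviations over the 6 arrays, the genes most like the brighter Tmed2 cluster, among 11082 genes at or above the median level, were Gm5093, a pseudogene, at 0.33, 1700029P11Rik at 0.35 and the sulfotransferase gene Chst12 at 0.36. These genes were searched for by closeness to the same values, so some likeness was fixed by the search. Gm5093 was at 250.3, 269 and 367 in controls and at 710 (replicate 1), 324 and 668 in Angpt2 shRNA-1 cells. Its Angpt2 shRNA-1 replicates 1 and 3 were the high arrays, as for Tmed2. The controls differed, since replicate 1 was the lowest control array for Gm5093 and the highest for Tmed2. Gm5093 lies on chromosome 17. The pattern of Tmed5, the other member with the widest range, was matched more closely, by Aatf at 0.034 and by Fubp3 and Adam19 at 0.037 each. Aatf was at 798, 884 and 788 in controls and at 861, 1067 and 803 in Angpt2 shRNA-1 cells. As for Tmed5, replicate 2 was its highest array in both groups.

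Beside the members, 7 lists of genes were read. They cover the early secretory pathway and, as a list of its own, ER chaperone and unfolded protein response genes. Of 104 listed genes 102 were measured, and 0 rose and 0 fell by the limma fit over all genes. At an unadjusted p under 0.05 there were 5 higher and 0 lower, where the fit held 338 genes higher (1.52% of all genes) and 497 lower (2.24%). Positive differences were found for 53 and negative ones for 49, with a median log2 difference of 0.0030. The groups did not overlap for 8 of the 102 (7.84%, against 9.01% of all genes), with Angpt2 shRNA-1 cells higher for 6 (3.53% of all genes) and lower for 2 (5.48%).

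Of the 2 coats that p24 tails bind, COPI gave the smaller values, with a median absolute difference of 0.04 against 0.07 over all genes. For the COPI coat, 4 of 9 differences were positive (median -0.0027), and the largest were 0.11 (SE 0.12) for the zeta subunit Copz2 and -0.05 (SE 0.08) for the alpha subunit Copa. For the COPII coat and its partners, 11 of 17 were positive (median 0.06), and the median absolute difference was 0.10. The groups did not overlap for 3 of the 17 (17.6%, against 9.01% of all genes), with Angpt2 shRNA-1 cells higher for 2 and lower for 1. Tfg, which organises ER exit sites, was at 1165, 1080 and 1092 in controls and at 1392, 1457 and 1174 in Angpt2 shRNA-1 cells. Its groups did not overlap, with a log2 difference of 0.26 (SE 0.10, limma adjusted p = 1.00), and the outer-coat gene Sec31b was at -0.26 (SE 0.14). Of 8 genes of the Arf cycle, which recruits COPI, 2 were positive (median -0.01), the GTPase genes Arf5 at 0.17 (SE 0.11) and Arf3 at 0.12 (SE 0.13). Of 18 ER-Golgi SNAREs and tethers, which dock and fuse the vesicles, 10 were positive (median 0.0043), with Bet1l at -0.18 (SE 0.12) and Sec22b at 0.15 (SE 0.12).

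Other cargo receptors were positive for 9 of 18 (median -0.0074). Cnih4, a cornichon family receptor, was at 361, 235 and 312 in controls and at 373, 430 and 364 in Angpt2 shRNA-1 cells. The groups were separate by a narrow margin, and the log2 difference was 0.38 (SE 0.15, limma adjusted p = 1.00), with 0.21 without control replicate 2. Bcap31, an ER sorting chaperone of membrane proteins, was at 1184, 1094 and 1300 in controls and at 1388, 1475 and 1406 in Angpt2 shRNA-1 cells, also without overlap, at 0.26 (SE 0.09, limma adjusted p = 1.00). Of 8 measured genes that attach or remodel the GPI anchor, which prepares this cargo for p24 binding, 3 were positive (median -0.06), with the deacylase gene Pgap1 at -0.16 (SE 0.11). Gpaa1, a transamidase subunit gene, was at 689, 711 and 701 in controls and at 631, 673 and 634 in Angpt2 shRNA-1 cells. Its groups did not overlap, and the log2 difference was -0.12 (SE 0.08, limma adjusted p = 1.00).

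**Figure D4:**
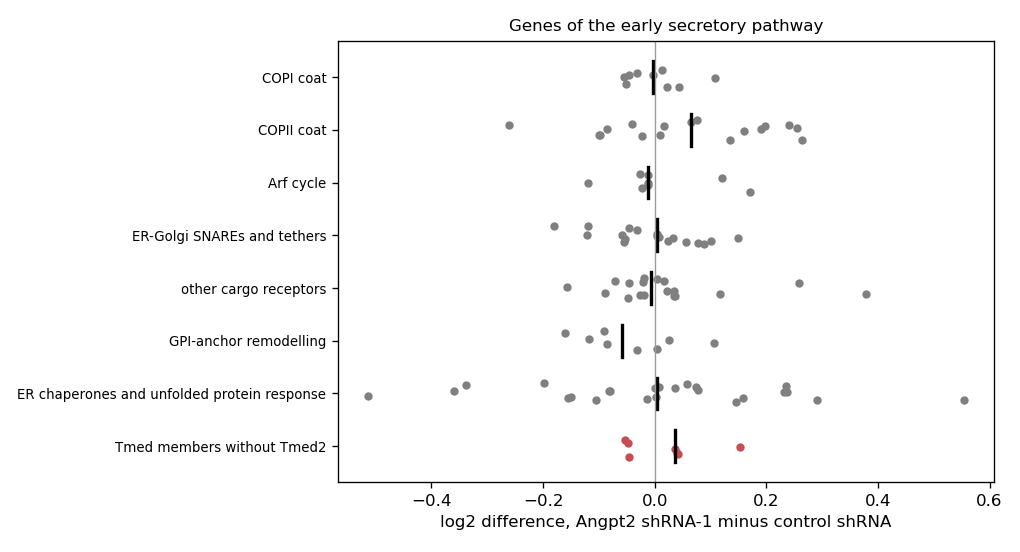
Log2 difference of Angpt2 shRNA-1 minus control shRNA (x axis) for the genes of each pathway list and for the 7 Tmed members other than Tmed2 (y axis). Each point is a gene, jittered vertically, and black bars are list medians; all medians lie between -0.06 and 0.06, and the widest spread is that of the ER chaperone and unfolded protein response list, from -0.51 to 0.55.

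ER chaperone and unfolded protein response genes were positive for 14 of 24 (median 0.0045). The chaperone gene Hspa5 was at 799, 1694 and 1566 in controls and at 2037, 2246 and 1468 in Angpt2 shRNA-1 cells. Ddit3, the gene of the stress factor CHOP, was at 1108, 205 and 345 in controls and at 280, 227 and 424 in Angpt2 shRNA-1 cells. Control replicate 1 was the lowest array for Hspa5 and the highest for Ddit3. Their log2 differences, 0.55 (SE 0.27) and -0.51 (SE 0.51), were 0.21 and 0.17 without that array. The Tmed members other than Tmed2 lay between -0.10 and 0.17 of their own means on control replicate 1, and the brighter Tmed2 cluster lay at 0.034. The part of these stress genes in the Tmed values was not tested.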

How the data were processed

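Total RNA (100 ng) of 6 cultures was hybridised to Affymetrix Mouse Gene ST arrays, per the labels' protocols. The deposited intensities, 1 value per transcript cluster, had been normalized by the authors. Their steps are not given in the sources used here, and that the scale is linear was judged from the range of values. Of 41345 clusters 40425 were complete on all arrays, and 22180 genes had at least 1 cluster with a single symbol. Values were taken to log2 without a pseudocount. The comparison used limma 3.58.1 (R 4.3.3, lmFit, then eBayes), with two-sided p-values adjusted by Benjamini and Hochberg's method over the whole gene table. The code was first run on simulated data, with independent noise per array and larger shifts than those of the members other than Tmed2. That run does not cover smaller differences or arrays that vary together. The number of arrays, 3 per group, limits the precision.

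The members and lists were chosen with earlier results of these data known. Genes named are the Tmed genes, Angpt2, the 2 largest absolute differences of each pathway list and the 3 closest patterns to Tmed2 and Tmed5; markers, genes flanking a cluster, pseudogenes, Pld4, Btbd35f12 and Plekho1 are named beyond that rule, the last 3 after their values were seen. Cluster places use RefSeq gene positions only for order. No coordinates are printed, as the build of the array annotation is not stated.

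Deviations of arrays with the same replicate number correlated across genes at 0.13, 0.21 and 0.14. Arrays were therefore also compared within replicate numbers, and a fit with the number as a block was run as an alternative. The main limma fit did not pair the arrays, so its SEs, intervals and p-values are unpaired. The labels do not say what a number marks. Alternatives were the block, 2 scalings, a filter on dim genes, the mean of a gene's clusters, a pseudocount of 16, trend with robust eBayes, each array left out, and, added later, the other Tmed2 cluster.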

Additional observations from a re-analysis of the deposited data

How the results depend on the processing

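The number of members other than Tmed2 called was 0 under all alternatives run, as was the number of pathway genes called. The number of genes called over all genes, 0 in the limma fit, was 2 with the replicate block (Angpt2 and Pld4) and 1 with trend and robust eBayes (Pld4). With each array left out it ranged from 0 to 2, with Angpt2 called without control replicate 1 and Btbd35f12 and Plekho1 without control replicate 2. The block changed no call of a member other than Tmed2 or of a pathway gene. At an unadjusted p under 0.05 the count ranged from 587 without Angpt2 shRNA-1 replicate 1 to 1274 without control replicate 3. Of the 7 members other than Tmed2, 4 had a positive difference in the limma fit, where 45.2% of all genes did. For Tmed2, the difference was 0.51 as the mean of both clusters and 0.01 on the other cluster alone. That of the brighter cluster, 1.02 in the limma fit, ran from 0.71 (control replicate 2 left out) to 1.45 (Angpt2 shRNA-1 replicate 2 left out). Leaving out an array turned the sign of Tmed3, Tmed4 (-0.019 without control replicate 2), Tmed8 and Tmed9, and of Tmed6 outside the member list. Tmed5, Tmed7 and Tmed10 kept theirs under all alternatives. The cause of these changes was not tested. No alternative used a dimmer cluster of Tmed10 alone. The log2 difference was -0.0073 on its cluster 17547668 and 0.13 on its cluster 17547670. Without detection calls, signals near those of Tmed6 and Tmed11 cannot be told from background.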
